A study of Mus musculus with 9 samples.

Results

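The motile cilium and axoneme genes were examined for DNA methylation in the hypothalamus of mouse pups after early life stress. These are 76 autosomal protein-coding genes, taken from the GENCODE vM21 annotation of the mm10 genome by their symbols. They comprise every gene whose symbol begins with Dnah, Dnaic, Rsph, Cfap or Spag, together with Hydin, Ccdc39, Ccdc40, Ccdc158, Mapk15, Foxj1, Drc1 and Armc4. At least 1 differentially methylated region (DMR) lay in the gene body or in the 1000 bp upstream in 31 of the 76 genes (40.8%). Among all autosomal protein-coding genes, which have a shorter median length, this share was 20.1%. The 31 genes held 73 DMRs of the 12845 that the authors listed on autosomes. Of the 73, 49 (67.1%) had the higher mean after stress, beside 62.4% of all autosomal DMRs, and 24 had the higher mean in controls.

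The study collected the hypothalamus of male C57/Bl6 mice on postnatal day 6. Modified maternal separation (MMS) took the pups from the dam for 1.5 h daily between postnatal days 4 and 6, and during that time pups that had turned onto the belly were placed on the back again. Controls were not exposed to it. Each litter was reduced to 4 males and gave 2 to each group, and the DNA of 10 pups per group was combined into 3 pools, so that a library is a pool of animals. Methylated DNA was immunoprecipitated and sequenced (meDIP-seq) in 3 control pools and 3 MMS pools, beside 1 input library per group and 1 IgG library. The labels give no genotype and no treatment other than MMS. No value in the table bears on which cell types the dissected tissue held, so its label was not checked against markers.

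Motile cilia beat by sliding the microtubules of their axoneme against each other. Dynein arms on the outer doublets supply the force, and the radial spokes, the nexin-dynein regulatory complex and the central pair apparatus govern it. In the hypothalamus motile cilia stand on the ependymal cells that line the ventricle and move cerebrospinal fluid, and the sperm tail is built on the same axoneme. Methylation within a gene body is a different feature from methylation of its promoter, and the 2 kinds are therefore given apart.

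The values are the authors' log2 means of normalised reads over the 3 pools of a group. The table has no value for a single pool, so no spread between pools, standard error or test could be computed, and the depth behind each mean is unknown. Every region was chosen by the authors' own test of MMS against control (false discovery rate of 0.05), which means that a difference at a listed region is a result of its selection and is described without a test. Regions that missed that threshold were not analysed here. In bulk tissue a changed share of cells and a changed methylation per cell cannot be told apart.

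The sequences under 11 DMRs were read from the mm10 reference, on the plus strand, with each CpG in capitals. CpG is the site that carries most methylation in mouse DNA. The first 5 are the DMRs with their centre in a coding exon, shown as up to 200 bp around that centre. They hold between 3 and 8 CpG sites.
Ccdc158, chr5:92643702-92643901: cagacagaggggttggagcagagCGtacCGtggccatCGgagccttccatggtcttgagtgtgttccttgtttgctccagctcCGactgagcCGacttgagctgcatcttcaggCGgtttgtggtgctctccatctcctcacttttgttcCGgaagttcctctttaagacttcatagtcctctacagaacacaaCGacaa
Dnah1, chr14:31293083-31293282: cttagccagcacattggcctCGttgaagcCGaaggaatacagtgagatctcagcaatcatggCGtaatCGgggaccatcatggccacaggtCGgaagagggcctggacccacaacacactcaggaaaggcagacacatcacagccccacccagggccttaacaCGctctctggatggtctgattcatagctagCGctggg
Dnah14, chr1:181707509-181707708: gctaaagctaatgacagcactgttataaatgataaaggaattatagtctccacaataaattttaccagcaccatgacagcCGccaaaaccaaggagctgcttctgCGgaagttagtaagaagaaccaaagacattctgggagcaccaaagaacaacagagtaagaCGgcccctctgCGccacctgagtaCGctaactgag
Dnah6, chr6:73060194-73060393: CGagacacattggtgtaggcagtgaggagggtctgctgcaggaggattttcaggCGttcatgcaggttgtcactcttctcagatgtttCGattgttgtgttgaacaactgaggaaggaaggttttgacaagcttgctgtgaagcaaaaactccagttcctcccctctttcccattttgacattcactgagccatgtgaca
Hydin, chr8:110566848-110567047: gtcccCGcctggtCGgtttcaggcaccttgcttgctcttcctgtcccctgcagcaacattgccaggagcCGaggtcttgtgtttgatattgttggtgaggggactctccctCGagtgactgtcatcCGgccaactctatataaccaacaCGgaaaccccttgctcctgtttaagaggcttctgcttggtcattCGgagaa

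The DMRs with their centre upstream of a member gene are shown next, because a promoter is where methylation is most often studied. The centre of the Cfap57 DMR lies 1335 bp from the gene start, so that its window falls outside the 1000 bp searched. Only the near edge of that DMR is inside, while the centre of the Rsph14 DMR lies at 539 bp. The Cfap57 sequence has 124 of its 200 bp in coding sequence of Ebna1bp2, a neighbour on the opposite strand. That of Rsph14 holds 2 CpG sites and that of Cfap57 holds 6.
Cfap57, chr4:118622012-118622211: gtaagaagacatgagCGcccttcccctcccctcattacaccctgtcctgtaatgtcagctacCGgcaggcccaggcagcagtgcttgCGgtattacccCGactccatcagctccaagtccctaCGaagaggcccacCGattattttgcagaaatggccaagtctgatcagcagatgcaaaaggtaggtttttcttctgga
Rsph14, chr10:75033025-75033224: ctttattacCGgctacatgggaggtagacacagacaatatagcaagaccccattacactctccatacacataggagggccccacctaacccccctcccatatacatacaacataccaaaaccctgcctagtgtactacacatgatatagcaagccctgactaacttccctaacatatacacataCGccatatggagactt

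The last 4 sequences belong to the DMRs with the largest differences among those in which neither group was near its lowest value. Cfap46 and a Dnah6 intron had the higher mean in control. A Hydin intron and Drc1 had the higher mean in MMS. Their log2 control means of 0.55 and 1.03 were still not far above the lowest control value of -0.17. These 4 windows lie in introns and hold between 1 and 3 CpG sites.
Cfap46, chr7:139672043-139672242: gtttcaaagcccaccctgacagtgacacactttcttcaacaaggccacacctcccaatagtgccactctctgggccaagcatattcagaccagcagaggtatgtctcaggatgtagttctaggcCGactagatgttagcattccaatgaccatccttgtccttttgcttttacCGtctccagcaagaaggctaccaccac
Dnah6, chr6:73143755-73143933: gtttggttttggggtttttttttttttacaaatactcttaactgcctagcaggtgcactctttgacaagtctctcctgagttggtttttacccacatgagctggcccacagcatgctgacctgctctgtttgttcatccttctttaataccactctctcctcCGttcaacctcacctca
Hydin, chr8:110279560-110279759: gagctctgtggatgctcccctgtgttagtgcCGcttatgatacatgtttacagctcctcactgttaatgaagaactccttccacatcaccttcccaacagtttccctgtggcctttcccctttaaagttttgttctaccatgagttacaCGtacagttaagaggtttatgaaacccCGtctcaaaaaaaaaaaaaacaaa
Drc1, chr5:30354914-30355113: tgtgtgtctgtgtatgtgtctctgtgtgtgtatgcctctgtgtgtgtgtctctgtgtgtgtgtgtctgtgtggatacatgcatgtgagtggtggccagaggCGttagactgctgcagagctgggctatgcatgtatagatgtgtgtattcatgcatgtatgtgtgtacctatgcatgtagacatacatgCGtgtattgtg

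Over the 73 DMRs, 67.1% had the higher mean in MMS, against 62.4% of all autosomal DMRs. The median difference (MMS minus control, log2) was 3.45 for the 49 DMRs with more signal in MMS and -1.75 for the 24 with more in control, and over all autosomal DMRs these medians were 3.43 and -1.73. The member DMRs therefore lay close to the whole list both in direction and in size. The majority turned in both when DMRs with either group within 0.5 of its lowest value were left out, to 47.7% of 44 member DMRs and 45.1% of all autosomal DMRs higher in MMS. The range ran from 1.31 to 5.31 among those higher in MMS and from -4.44 to -0.96 among those higher in control.

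The 2 directions differed in where they started. Among DMRs higher in MMS the median log2 mean was -0.17 in control and 4.01 in MMS. The value -0.17, which is 0.889 normalised reads, is the lowest that any control mean takes in the table. Control lay within 0.5 of it in 28 of the 49 DMRs (57.1%), beside 52.6% of all autosomal DMRs higher in MMS. A log2 difference of such a region depends on that lowest value and cannot be read as a fold of methylation. Among DMRs higher in control the medians were 5.22 in control and 3.25 in MMS, and 1 of the 24 (4.17%) had MMS within 0.5 of its own lowest value, beside 4.61% of all autosomal DMRs higher in control.

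**Figure D1:**
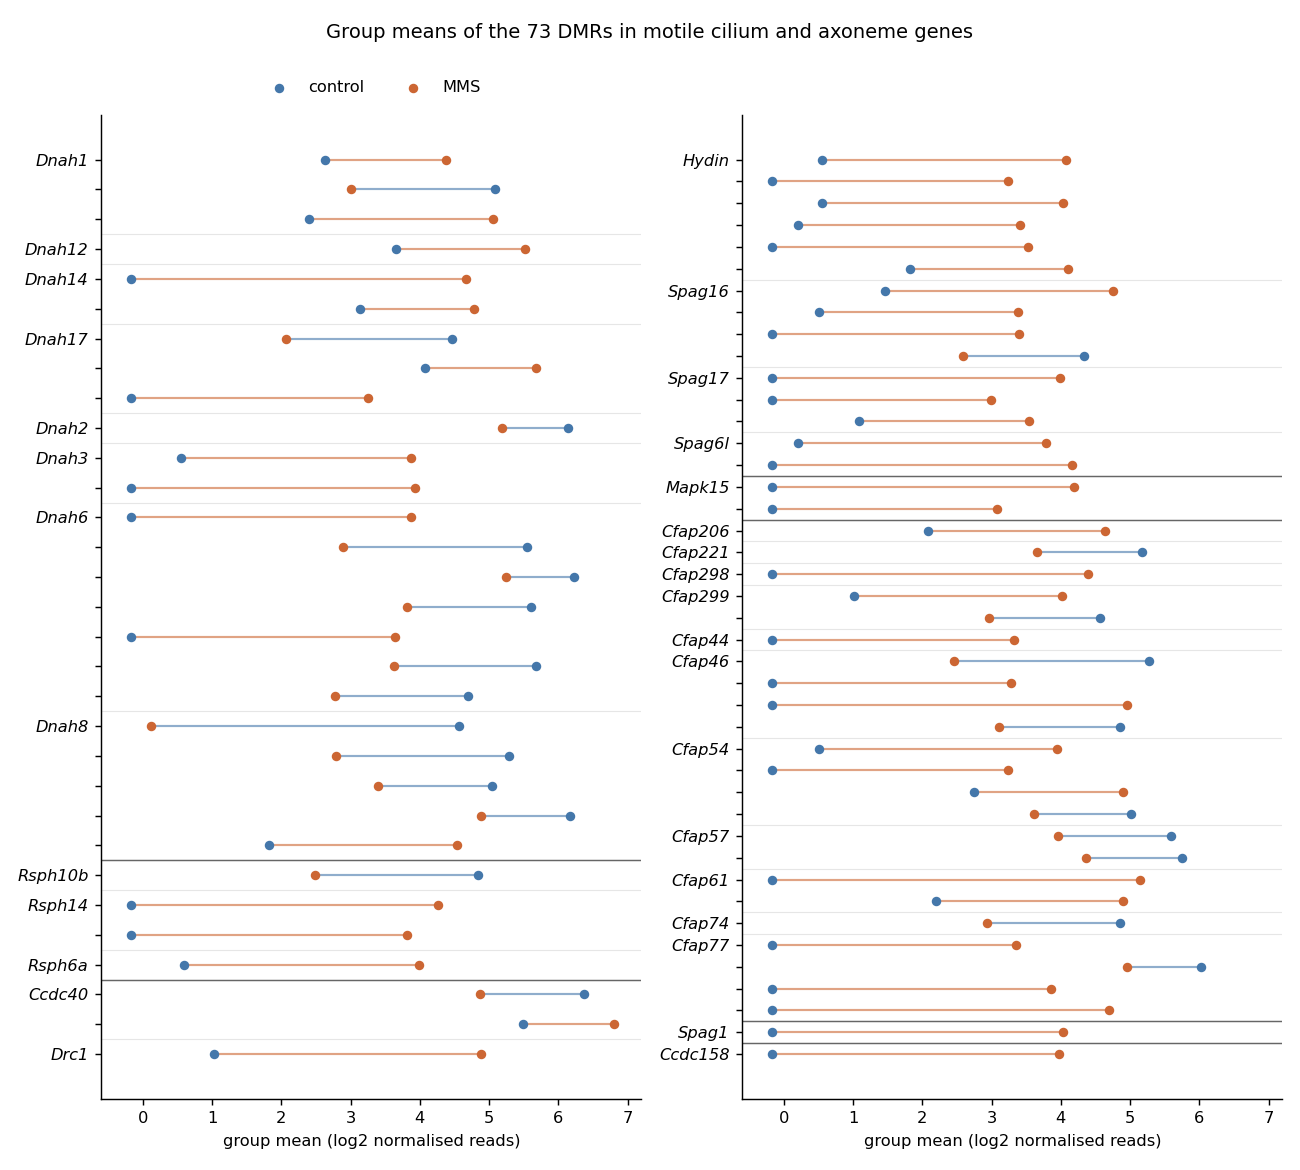
Log2 mean of normalised reads over 3 pools (horizontal axis) in control (blue) and MMS (orange) for each of the 73 DMRs, 1 row per DMR in order along its gene, with a line joining the groups in the colour of the higher one, grey lines between genes and dark lines between groups of genes. Many orange lines start at the lowest control value of -0.17, while the blue lines end at control means of 4.33 to 6.37.

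The dynein heavy chains are the motor subunits of the dynein arms. They held 24 DMRs in 8 of 15 genes (53.3%), beside 20.1% of all autosomal protein-coding genes. Their median gene length is 239 kb, and 59.7% of all genes from 100 to 300 kb had a DMR. Per megabase of gene the heavy chains had 7.05 DMRs, beside 9.32 in the Cfap genes, 9.19 in the central pair genes and 6.5 over all genes. The 24 DMRs divided evenly, with 12 higher in MMS and 12 higher in control, beside 62.4% of all autosomal DMRs higher in MMS. The control-high DMRs had control means of 4.47 to 6.23 and the MMS-high ones had MMS means of 3.25 to 5.67. Each pair of values below gives the log2 mean in control and then that in MMS, and introns are numbered on the transcript with the longest coding sequence, so that an intron of that transcript can hold an exon of another.

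Dnah6, an inner-arm heavy chain, had 7 DMRs within 204 kb of gene, 5 of them higher in control. Its values were 4.69 and 2.78 in intron 61 (chr6:73056736-73057283), 5.68 and 3.62 across exon 61 (chr6:73059725-73060863), -0.17 and 3.64 in intron 59 (chr6:73065847-73066108), 5.6 and 3.82 in intron 42 (chr6:73104380-73105096), 5.54 and 2.89 in intron 29 (chr6:73143755-73143933), and -0.17 and 3.87 in intron 20 (chr6:73157070-73157743). The remaining DMR (chr6:73127672-73129709) had the smallest difference of the gene, from 6.23 to 5.24. The exon 61 DMR and the intron 59 DMR are separated by 4983 bp and pointed in opposite directions. In the reference sequences above, the exon 61 window of Dnah6 is the one with 3 CpG sites and the intron 29 window has 1.

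Dnah8, a heavy chain of the sperm outer arm, had 5 DMRs, 4 of them higher in control. Its means were 4.56 and 0.12 in intron 41 (chr17:30730329-30731121), 5.28 and 2.79 in intron 49 (chr17:30745073-30745949), 5.04 and 3.39 in intron 87 (chr17:30836129-30837683), 6.17 and 4.88 in intron 88 (chr17:30849817-30851441), and 1.82 and 4.53 in intron 91 (chr17:30862493-30863627). The intron 41 DMR had the largest difference of any member DMR higher in control, -4.44, and is the one with MMS near its lowest value. All 5 also lie under AC174471.1, a noncoding transcript on the opposite strand.

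Dnah17, another heavy chain of the sperm outer arm, had 3 DMRs. They measured -0.17 and 3.25 in intron 69 (chr11:118038798-118039107), 4.08 and 5.67 in intron 39 (chr11:118080516-118082758), and 4.47 and 2.07 in intron 18 (chr11:118104881-118105582). The first 2 were therefore higher in MMS and the last higher in control. Dnah1, an inner-arm chain that the sperm tail needs, also had 3, of 2.4 and 5.05 in intron 65 (chr14:31265788-31266647), 5.09 and 3.01 across exon 32 (chr14:31293025-31293341), and 2.63 and 4.37 in intron 6 (chr14:31314108-31314311). The exon 32 DMR, whose window is shown above with 7 CpG sites, was the only 1 of the 3 higher in control.

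The other heavy chains with a DMR were higher in MMS, apart from Dnah2. Dnah14 had means of -0.17 and 4.67 across exon 47 (chr1:181707119-181708100) and 3.13 and 4.78 in intron 80 (chr1:181805619-181806204). Dnah3 had -0.17 and 3.93 in intron 41 (chr7:119979247-119979988) and 0.55 and 3.87 in intron 20 (chr7:120051437-120051663). Dnah3 and Dnah12 are inner-arm chains. The single DMR of Dnah12 had 3.65 and 5.52 in intron 17 (chr14:26730592-26731553). That of Dnah2, also an inner-arm chain, had 6.14 and 5.18 in intron 22 (chr11:69488752-69490302), the smallest difference among the members at -0.96.

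No DMR was listed in Dnah5, Dnah9 or Dnah11, the outer-arm heavy chains of motile cilia, nor in Dnah7a, Dnah7b, Dnah7c or Dnah10. A DMR lay 3636 bp upstream of Dnah11, outside the stretch searched. Of all autosomal protein-coding genes, 59.7% from 100 to 300 kb and 82.3% from 300 kb on had a DMR. Per 100 bp of gene body, Dnah8 has 1.35 CpG sites and Dnah17 has 1.98, Dnah5 has 0.806, Dnah9 has 0.622 and Dnah11 has 0.714, while Dnah10, without a DMR, has 1.65, and Dnah3 and Dnah12, which have DMRs, have 0.68 and 0.787. Enrichment by meDIP itself depends on methylated CpG, and the part of CpG density in which genes had a DMR was not tested. The dynein intermediate chain genes Dnaic1 and Dnaic2 and the outer-arm docking gene Armc4 had no DMR either.

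The central pair genes, whose products form the apparatus in the middle of the axoneme, held 15 DMRs in 4 of 5 genes. Of all autosomal protein-coding genes 20.1% had a DMR. The median length of the central pair genes is 258 kb, and 59.7% of all genes from 100 to 300 kb and 82.3% from 300 kb on had one. Of the 15 DMRs, 14 (93.3%) had the higher mean in MMS, beside 62.4% of all autosomal DMRs. The 58 member DMRs outside the central pair had the higher mean in MMS in 35 cases (60.3%). The groups were compared after their values were known, and the difference between these shares was not tested. Control means of the 14 lay between -0.17 and 1.82 and MMS means between 2.99 and 4.75. Their medians were 0.2 in control and 3.66 in MMS, beside 0.2 and 4.1 over all autosomal DMRs higher in MMS. A low control mean was thus not particular to them.

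Hydin encodes a very large central pair protein, and its loss in mice causes hydrocephalus. All 6 of its DMRs were higher in MMS. Going along the gene, the means were 0.55 and 4.08 in intron 2 (chr8:110279459-110279862), -0.17 and 3.23 in intron 19 (chr8:110444325-110444502), 0.55 and 4.03 in intron 29 (chr8:110496213-110496699), 0.2 and 3.41 in intron 30 (chr8:110501455-110501879), -0.17 and 3.53 in intron 53 (chr8:110548430-110549043), and 1.82 and 4.11 across exon 63 (chr8:110566491-110567406). In normalised reads the 6 ran from 0.889 to 3.53 in control and from 9.38 to 17.3 in MMS. The 2 Hydin windows shown above come from intron 2 and exon 63, with 3 and 7 CpG sites.

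Spag17, a central pair protein, had 3 DMRs, all higher in MMS. They measured -0.17 and 3.99 in intron 1 (chr3:99925129-99925898), -0.17 and 2.99 in intron 25 (chr3:100060858-100061097), and 1.08 and 3.54 in intron 29 (chr3:100074307-100075034). The intron 25 DMR contains no CpG in the reference. Spag6l had -0.17 and 4.16 in intron 10 (chr16:16759379-16760313) and 0.2 and 3.78 in intron 8 (chr16:16775736-16776240).

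Spag16 held the only control-high DMR of the group. Its DMRs lay in intron 1 (chr1:69828677-69829246, 1.46 and 4.75), intron 10 (chr1:69914336-69915757, 0.5 and 3.38), intron 13 (chr1:70309241-70309489, -0.17 and 3.39) and intron 16 (chr1:70635302-70635696, 4.33 and 2.58). The intron 16 DMR has 4.81 CpG sites per 100 bp, the highest density of the 73. Spag6 had no DMR.

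**Figure D2:**
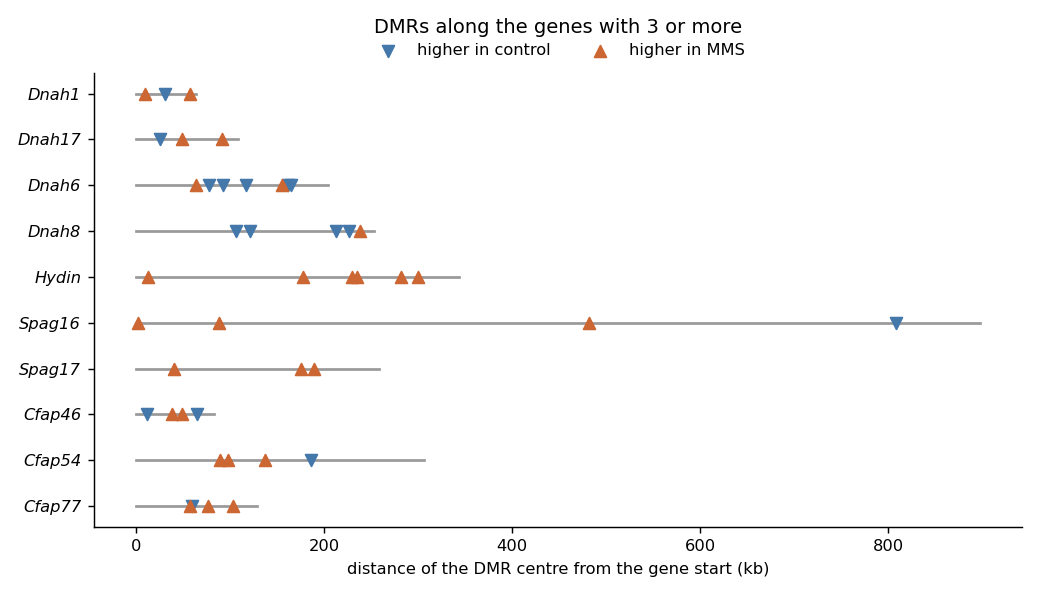
Distance of each DMR centre from the gene start in kb (horizontal axis) in the 10 member genes with at least 3 DMRs, each grey line having the length of the gene. Upward orange triangles are higher in MMS and downward blue ones higher in control, so that all 6 DMRs of Hydin are orange and 5 of 7 in Dnah6 are blue.

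The radial spokes relay signals from the central pair to the dynein arms. They had 4 DMRs in 3 of 8 genes (37.5%), beside 20.1% of all autosomal protein-coding genes. Rsph14 had 1 upstream of the gene (chr10:75032940-75033310), at -0.17 in control and 4.26 in MMS, and another in intron 4 (chr10:75005076-75005369), at -0.17 and 3.81, which also lies within Gnaz on the opposite strand. Rsph6a had 0.59 and 3.99 in intron 2 (chr7:19057830-19058571). Rsph10b had 4.84 and 2.48 in intron 5 (chr5:143945198-143945365) and was the only radial spoke gene higher in control. Rsph1, Rsph3a, Rsph3b, Rsph4a and Rsph9 had no DMR.

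Drc1, part of the nexin-dynein regulatory complex, had 1 DMR at 1.03 and 4.88 in intron 7 (chr5:30354349-30355680), whose window is the last of those shown above. Ccdc40, part of the molecular ruler that sets the spacing of arms and spokes, had 2 DMRs of opposite direction and high level. They measured 6.37 and 4.87 in intron 8 (chr11:119238408-119240494) and 5.49 and 6.8 in intron 18 (chr11:119258494-119259808). These are the highest control mean and the highest MMS mean of the 73. Ccdc39, the partner of Ccdc40 in the ruler, had none.

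Foxj1, the transcription factor that switches on the motile cilium programme, had no DMR over its 4.7 kb or the 1000 bp upstream. Mapk15, a kinase with a part in cilium formation, had 2 that were both higher in MMS, at -0.17 and 4.19 in intron 7 (chr15:75996141-75997367) and at -0.17 and 3.08 over the untranslated end of exon 14 (chr15:75998970-75999261). Control was at its lowest value in both. Ccdc158, a coiled-coil protein, had -0.17 and 3.97 across exon 14 (chr5:92643641-92643964), where the window shown above has 8 CpG sites.

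The Cfap genes encode cilia and flagella associated proteins of many kinds. DMRs were listed in 11 of 31 of them (35.5%), beside 20.1% of all autosomal protein-coding genes. Of their 23 DMRs, 14 (60.9%) were higher in MMS, beside 62.4% of all autosomal DMRs, and 9 were higher in control. Cfap46, Cfap54, Cfap74 and Cfap221 belong to the central apparatus and had 5 DMRs in each direction, beside 14 against 1 in the central pair genes above, a difference that was not tested.

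Cfap46 had 4.85 and 3.11 in intron 41 (chr7:139618594-139618781), -0.17 and 4.95 in intron 33 (chr7:139634460-139635556), -0.17 and 3.28 in intron 24 (chr7:139645770-139646029), and 5.27 and 2.46 in intron 9 (chr7:139671550-139672737). Its intron 24 DMR holds no CpG in the reference. Cfap54 had 5.02 and 3.61 in intron 51 (chr10:92895527-92895835), 2.75 and 4.9 in intron 39 (chr10:92944514-92945390), -0.17 and 3.24 in intron 27 (chr10:92983346-92983593), and 0.5 and 3.94 in intron 26 (chr10:92991628-92992084). The DMRs of Cfap54 were thus higher in MMS except the one in intron 51. Cfap74 had 4.86 and 2.94 in intron 5, over an untranslated exon of another transcript (chr4:155421062-155421217), and Cfap221 had 5.17 and 3.65 in intron 12 (chr1:119949828-119950874).

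Cfap77, a protein of the inside of the doublet microtubules, had 4 DMRs. They measured -0.17 and 4.69 in intron 5 (chr2:28951343-28952944), -0.17 and 3.86 in intron 3 (chr2:28977898-28978262), 6.03 and 4.96 in intron 1 (chr2:28995451-28996588), and -0.17 and 3.35 in the same intron (chr2:28998014-28998184). The last 2 are 1425 bp apart and point in opposite directions. Cfap61, a protein at the base of the radial spokes, had -0.17 and 5.14 in intron 25 (chr2:146190822-146191777), the largest difference of the 73 at 5.31, and 2.2 and 4.9 in the same intron (chr2:146197945-146199000).

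Cfap57, which has a part in inner-arm assembly, was higher in control in both its DMRs. It had 5.75 and 4.36 in intron 12 (chr4:118585878-118587270) and 5.59 and 3.96 upstream (chr4:118621665-118622560), the latter within Ebna1bp2 on the opposite strand. Cfap299 had 1.01 and 4.01 (chr5:98392723-98393327) and 4.57 and 2.96 (chr5:98453789-98454233), both in intron 2 and in opposite directions.

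Single DMRs higher in MMS lay in the remaining genes. Cfap206, which docks a radial spoke, had 2.08 and 4.64 in intron 7 (chr4:34718754-34719937). Cfap298, a factor in dynein arm assembly, had -0.17 and 4.39 in intron 1 (chr16:90930906-90931716). Cfap44, which tethers an inner dynein, had -0.17 and 3.32 in intron 7 (chr16:44410791-44411231). Of the 8 Spag genes outside the central pair only Spag1, which has a part in assembling dynein arms, had a DMR, with -0.17 and 4.03 in intron 10 (chr15:36202170-36203801). Most of these other Spag genes are named for sperm antigens and not for a known part in the axoneme.

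Counted by gene, 16 members had DMRs higher in MMS only, 5 had DMRs higher in control only and 10 had both. The 5 were Cfap221, Cfap57, Cfap74, Dnah2 and Rsph10b. This split by gene was not counted over all genes, and 62.4% of all autosomal DMRs had the higher mean in MMS. It is therefore not shown to be particular to the members. A single DMR was found in 12 members, and the 10 members with at least 3 held 43 of the 73. DMRs of 1 gene share the gene and its sequence context, so they are not replicates of each other.

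A listed DMR was present in 40.8% of the 76 genes, against 20.1% of all autosomal protein-coding genes. The members are long genes, with a median length of 57.8 kb against 17.6 kb, and longer genes offer more sequence in which a DMR can lie. Per megabase of gene the members had 8.54 DMRs and all genes 6.5. Within classes of length the members stood above all genes in 3 of 5 classes and below in the other ones. Under 10 kb, 2 of 11 members (18.2%) had a DMR against 3.76% of all genes, from 10 to 30 kb 1 of 12 (8.33%) against 13.7%, and from 30 to 100 kb 14 of 29 (48.3%) against 30.7%. From 100 to 300 kb the count was 10 of 15 (66.7%) against 59.7%, and from 300 kb on it was 4 of 9 (44.4%) against 82.3%. The class of longest genes thus turned the order round.

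**Figure D3:**
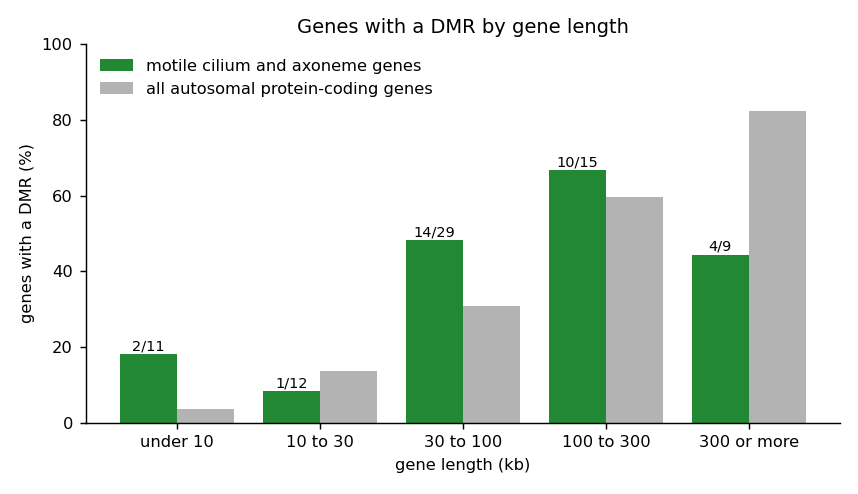
Percent of genes with at least 1 listed DMR (vertical axis, from 0) by class of gene length in kb (horizontal axis), for the motile cilium and axoneme genes and for all autosomal protein-coding genes, with the counts of members over the bars. Members stand at 48.3% against 30.7% from 30 to 100 kb and at 44.4% against 82.3% from 300 kb on.

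Of the 24 members of 100 kb or more, 14 had a DMR (58.3%), beside 64.9% of all genes of that length. The 10 without one include 8 genes with 0.492 to 0.806 CpG sites per 100 bp, which are 6 dynein heavy chains, Armc4 and Spag9. The gene body had a median of 1.03 CpG sites per 100 bp in the 14 long members with a DMR and 0.677 in the 10 without. Over all genes of 100 kb or more these medians were 0.984 and 0.769, so the members followed the direction seen across the annotation. Dnah10, at 1.65, and Cfap43, at 1.47, had dense gene bodies and no DMR. In the other direction Spag16 at 0.566, Dnah3 at 0.68, Spag17 at 0.706, Cfap299 at 0.767 and Dnah12 at 0.787 had DMRs on sparse gene bodies, so the ranges of long members with and without a DMR overlapped.

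**Figure D4:**
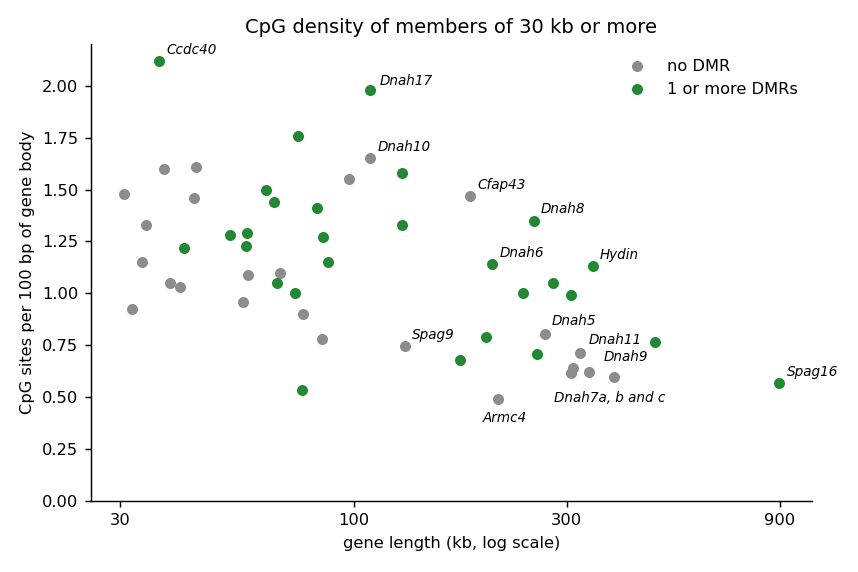
CpG sites per 100 bp of gene body (vertical axis) against gene length in kb (horizontal axis, log scale) for members of 30 kb or more, each point being 1 gene. Among genes of 100 kb or more those without a DMR have a median of 0.677 and those with a DMR a median of 1.03, and the 2 sets overlap over most of their range.

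A minor part of each Dnah7 gene recurs word for word in the other dynein genes compared. Of positions in the gene, 15.1% in Dnah7a, 19.1% in Dnah7b and 19.8% in Dnah7c begin a 50-bp word that occurs in another of 8 compared dynein genes. In Dnah6 this share was 2.91% and in Dnah8 0.182%. Reads that lie wholly in such stretches may map to more than 1 place, but a read longer than 50 bp can reach beyond a shared word. The part that shared sequence plays in the absence of DMRs from Dnah7a, Dnah7b and Dnah7c was not tested. In Dnah9, which also had no DMR, the share was 1.87%.

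Most member DMRs lay inside introns, as did most DMRs of all genes. By the centre of the region, 61 of 73 (83.6%) fell in an intron, beside 87.7% of the 6661 pairs of an autosomal protein-coding gene and a DMR, 5 in a coding exon, 3 in a noncoding exon, 2 in an untranslated exon and 2 upstream. The 3 noncoding exons, in Ccdc40, Cfap46 and Mapk15, and the untranslated exon in Cfap74 belong to other transcripts and lie within the introns 18, 24, 7 and 5 given above. Of the 61, 41 were higher in MMS and 20 in control. Counting any overlap, 16 of the 73 (21.9%) touched a coding exon, beside 17.7% of all pairs. The centre lay within 1000 bp of an annotated transcript start of the gene in 12 DMRs (16.4%), beside 9.5% of all pairs, a difference that was not tested. The nearest were Mapk15 at 41 bp, a Hydin DMR (intron 19) at 76 bp, Ccdc158 at 82 bp and a Dnah14 DMR (intron 80) at 90 bp, and these are starts of shorter transcripts inside the gene. Another annotated gene lay under 12 DMRs and another protein-coding gene under 2, namely those of Cfap57 and Rsph14.

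The limit of 1000 bp upstream touched few DMRs. Inside it lay the near edge of the Rsph14 DMR, 354 bp from the gene, and that of the Cfap57 DMR, 888 bp from its gene. Just outside lay a DMR 2734 bp upstream of Cfap45 at -0.17 and 4.42, and a DMR 3636 bp upstream of Dnah11 at 4.31 and 1.71.

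In CpG, GC and repeat content the member DMRs lay near the whole list, but they were wider. Their median width was 717 bp (range 156 to 2243), against 544 bp over all autosomal DMRs and 562 bp over those in protein-coding genes. They held a median of 1.32 CpG sites per 100 bp, with quartiles of 0.844 and 1.89 and a range from 0 to 4.81. That median equals the one of all autosomal DMRs and is below the 1.43 of those in protein-coding genes. DMRs higher in control were denser, at 1.55 against 1.17, and wider, at 835 bp against 614 bp. Over all autosomal DMRs the densities were 1.43 and 1.27 and the widths 596 bp and 515 bp, in the same direction. The median GC content was 47.7% against 47.4%, and the median share masked as repeats 19% against 20.6%. Over DMRs in protein-coding genes these medians were 48.2% and 16.4%.

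Foxj1 and the RFX factors drive cilium genes from promoters through a forkhead motif and an X-box. The forkhead core TGTTTAC, on either strand, occurred in the central 500 bp of 8 of 73 DMRs (11%), against 6.14% of all autosomal DMRs. The RFX core GTTGCC occurred in 9 (12.3%) against 14.2%. Neither core contains the other on either strand, and a match is a run of letters and not a site of binding.

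A second list of 101 cilium genes, holding dynein assembly factors, intraflagellar transport and Bardet-Biedl proteins, tektins and others outside the first list, had a DMR in 29 genes (28.7%), beside the same 20.1% of all genes. The median gene length was 35.5 kb on this list and 17.6 kb over all genes. Their 56 DMRs had the higher mean in MMS in 30 cases (53.6%, beside 62.4% of all autosomal DMRs) and in control in 26. Control was within 0.5 of its lowest value in 19 of the 30 (63.3%, beside 52.6%).

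Bbs9, Ulk4, Cep164 and Ift88 were among the 5 genes with the most DMRs on that list. Bbs9, a subunit of the BBSome that carries cargo into cilia, had 4, all higher in MMS. Ulk4 had 4, with 2 in each direction. Cep164, which anchors the basal body, had 3, with 1 higher in MMS and 2 in control. Ift88, a core subunit of intraflagellar transport, had 3, with 2 higher in MMS and 1 in control.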

How the data were processed

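Methylated DNA immunoprecipitation (meDIP-seq) was measured in 3 control and 3 MMS pools, with 1 input per group and 1 IgG library that entered only the authors' processing. Per the labels and the methods, reads were aligned to mm10 with Torrent Suite, broad peaks were called with MACS2 (2.1 in the submitters' processing notes) against pooled input, with IgG reads subtracted, and groups were compared by DiffBind with DESeq2. The deposited values are log2 means of DiffBind-normalised reads, as made by the authors, over all libraries, over the untreated group (read here as control) and over the treated group (read here as MMS). The authors' fold, p-value and FDR columns were not used. The lowest means were -0.17 in control and -0.24 in MMS. Depth per library is not in these values, and 3 pools per group limit the precision.

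The members and lists were chosen with earlier results of these data known. DMRs were assigned to genes by overlap with the gene body or 1000 bp upstream in GENCODE vM21, on autosomes 1 to 19, with 20807 protein-coding genes as background. The difference is MMS minus control. CpG sites, GC and repeat masking were read from the mm10 reference, and motifs from the central 500 bp. Every member with a DMR is named, sequences were shown for DMRs centred upstream or in a coding exon and for those with the 2 greatest differences per direction off the lowest values, and of the second list the 5 genes with the most DMRs were to be named, of which 1 is not reported here. No test between groups was possible without values per library. Overlap code was tested on simulated regions. The gene-body CpG density, shared 50-bp words, distances to transcript starts and the features over all pairs of gene and DMR were added after values were seen. Alternatives covered the stretch searched, minimum difference and width, lowest values and membership. Python 3.11.15, numpy 2.4.6, pandas 2.3.3 and matplotlib 3.10.9 were used.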

Additional observations from a re-analysis of the deposited data

How the results depend on the processing

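Of 20 alternatives run, 3 moved a value. Without DMRs in which either group lay near its lowest value, the share higher in MMS was 47.7% of 44 DMRs, and over all autosomal DMRs it was 45.1%. With differences of 2 or more on the log2 scale it was 84.6% of 52 DMRs, and over all autosomal DMRs 80.5%. With only Dnah, Dnaic, Rsph, Hydin, Ccdc39, Ccdc40, Drc1 and Armc4, which by construction leaves 30 genes and no Spag gene of the central pair, 14 had a DMR. The other alternatives gave 25 to 33 members with a DMR, shares higher in MMS of 61.3% to 71.2%, a median of 1.37 to 1.41 CpG sites per 100 bp, 26 DMRs with control exactly at its lowest value and 34 with control within 1 of it on the log2 scale. The 95% Wilson interval of the share of 67.1%, which covers counting error only and treats DMRs as independent, ran from 55.7% to 76.8%. No paired analysis was possible because the table holds group means and no value per library. For the same reason no pool could be left out in turn. The depth per region is unknown, so a region that is not listed is not shown to be without a difference.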
